A study of Mus musculus with 12 samples.

Results

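AP-1 and the immediate early factors were followed through RNA-seq of mouse bone marrow progenitors that carried leukemia oncogenes. The set holds 10 genes of the 51912 in the count table and was drawn by gene symbol: the Fos family members Fos, Fosb and Fosl2, the Jun family members Jun, Junb and Jund, the related factor Atf3, the zinc finger factors Egr1 and Egr2, and Ier2. The rule uses names, not expression values. The study asked how the transcriptional programs of mutant CSF3R and mutant CEBPA combine. Marrow of C57BL/6 mice, an inbred strain, was transduced with retroviral vectors in medium with WEHI-conditioned supernatant, IL-3, IL-6 and SCF, and cells that lacked mature lineage antigens and carried the vectors' GFP and red fluorescent markers were sorted and frozen. The 4 groups, with 3 libraries each lettered A, B and C, were both mutants, CSF3R T618I, CEBPA V314VW and empty vector. CSF3R T618I is an activated form of the granulocyte colony-stimulating factor receptor, and CEBPA V314VW carries an insertion in the C-terminal part of a transcription factor needed to make granulocytes. The genes were driven by viral vectors in a mixed progenitor population whose own Cebpa and Csf3r were intact, all groups had the same cytokines in their medium, and nothing in the labels ties equal letters to an animal, a culture or a sort. P-values therefore measure the spread between these libraries, which may be in part technical.

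AP-1 is a dimer of leucine zipper proteins, usually a Fos family protein with a Jun family protein, which binds DNA and carries cytokine and growth factor signals into transcription. Most of its genes, together with the Egr genes and Ier2, are immediate early genes: they are transcribed within minutes of a signal without new protein synthesis, and their messages decay quickly. Jun and JunB are often set against each other, as Jun favours proliferation while JunB can restrain it and is known as a brake on myeloid expansion in mice. The same genes also respond to handling of cells, such as dissociation, sorting and freezing.

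Libraries held 44210071 to 67431235 counts. Levels are in CPM, the counts of a gene relative to a library size that TMM scaled to correct for a few genes taking many reads, and a mean is followed by its SD over 3 libraries. Tests are edgeR quasi-likelihood F tests from 1 fit to all 12 libraries and 16360 genes, adjusted over all those genes, with an adjusted p under 0.05 counted as a change. All 10 members passed the filter on low counts. The comparisons share libraries, and those with empty vector share all 3 of its libraries. Libraries of CSF3R T618I differed most among themselves, their biological coefficient of variation being 0.267, while it was 0.0462 with both mutants, 0.138 with CEBPA V314VW and 0.146 with empty vector. They also differed along transcript length: per doubling of length, the log2 level deviated from the group mean by -0.12 in CSF3R T618I library A, -0.05 in library B and 0.17 in library C. Without library C, 3001 genes rose and 3398 fell in CSF3R T618I over empty vector, against 1636 and 1581 with it. On plain total counts the median gene shifted by -0.11 in CSF3R T618I over empty vector, and 33.3% of the called genes were higher, against 50.9% on TMM. That share was 59.2% on total counts and 45.6% on TMM for both mutants over CSF3R T618I, and 32.9% and 43.5% for both mutants over CEBPA V314VW.

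Stretches before the transcription start are shown for 4 members, Fos and Fosb because they fell together and Junb and Jun because their order turned over between groups. Of the 10 members, 8 matched a promoter entry of RefSeq, credited here with build GRCm38.p6. Windows of the 250 bases before the start were searched on both strands, and the last 120 bases are printed 5′ to 3′ on the gene's strand. Capitals mark the letters TGACG, the core of the cyclic AMP response element (CRE), a search added after the windows had been seen. The stretches are Fos at chr12:85473770-85473889 on the plus strand, Fosb at chr7:19310046-19310165 on the minus strand, Junb at chr8:84978749-84978868 on the minus strand and Jun at chr4:95052223-95052342 on the minus strand.
Fos: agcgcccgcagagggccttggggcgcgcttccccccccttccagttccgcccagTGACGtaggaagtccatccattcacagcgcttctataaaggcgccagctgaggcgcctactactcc
Fosb: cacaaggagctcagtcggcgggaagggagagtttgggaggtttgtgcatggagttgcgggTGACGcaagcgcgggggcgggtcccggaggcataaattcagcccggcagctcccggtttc
Junb: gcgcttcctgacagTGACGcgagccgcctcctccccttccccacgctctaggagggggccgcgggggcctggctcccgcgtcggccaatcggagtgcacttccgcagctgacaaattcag
Jun: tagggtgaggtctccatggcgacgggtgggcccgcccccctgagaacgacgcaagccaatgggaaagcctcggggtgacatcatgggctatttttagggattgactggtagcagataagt

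The core began at base -66 from the start in Fos, -60 in Fosb and -106 in Junb, and the Jun window held none. A further copy lay at base -129 of Fos, outside the stretch shown. Among members not shown, the core lay at base -7 of Atf3 on the other strand and in some Egr2 windows. The windows of Fosl2 and Jund held none. The core occurs in 17.7% of all 32817 RefSeq windows of this length. Neither the full CRE TGACGTCA (1.55% of windows), the AP-1 site TGANTCA (6.75%), the STAT site TTCNNNGAA (7.01%) nor the ETS core CCGGAAGT (2.88%) lay in any of the members' windows searched. Egr1 and Ier2 were without a window. Junb also held the EGR core GCGTGGG, which is in 4.31% of windows, at base -81 on the other strand, and the CCAAT box (33.8% of windows) lay at base -36 in Junb and -65 in Jun. The CArG box, bound by serum response factor and found in 1.47% of windows, was in several Egr2 windows, some of which overlap. The Junb window ends 30 bases before the GENCODE gene start, those of Fos and Jun end at it, and that of Fosb reaches 6 bases past it. The starts used for Fosl2, Jund and Atf3 lie 671, 1210 and 34706 bases from the GENCODE gene start. Their windows do not cover the bases before that start. A match is a description of letters, and no binding was measured.

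Against CSF3R T618I, both mutants raised 2 members, Jun and Egr1, where 8.43% of all genes rose. The same comparison lowered 5 members, Fos, Fosb, Junb, Jund and Ier2, where 10.1% of all genes fell. Against CEBPA V314VW, both mutants raised 1 member, Junb, beside 7.79% of all genes. No member fell there by edgeR, beside 10.1% of all genes, while DESeq2 called Fosb lower. At an unadjusted p under 0.05, 2 members were lower there, Fosb and Jun, and Atf3 was higher beside Junb. Against empty vector, both mutants raised 3 members, Fosl2, Junb and Atf3, beside 10.7% of all genes, and lowered 3, Fos, Fosb and Egr1, beside 10.7%. CSF3R T618I raised the same 3, Fosl2, Junb and Atf3, over empty vector, beside 10.0% of all genes, and lowered 3, Fos, Jun and Egr1, beside 9.66%. CEBPA V314VW raised 1 member over empty vector, Atf3, beside 9.50%, and lowered 5, Fos, Fosb, Junb, Jund and Ier2, beside 7.68%. The interaction is the effect of CSF3R T618I in cells with CEBPA V314VW minus its effect in cells without it. It was above 0 for 1 member, Egr1, beside 0.501% of all genes, and no member was below 0, beside 1.27%. At an unadjusted p under 0.05 the edgeR interaction of Fosl2 and Atf3 lay below 0, and DESeq2 called no member below 0. That of Jun lay above 0 at this unadjusted threshold (0.58 ± 0.19; edgeR adjusted p = 0.201). The share of all genes at the unadjusted threshold was not counted.

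**Figure D1:**
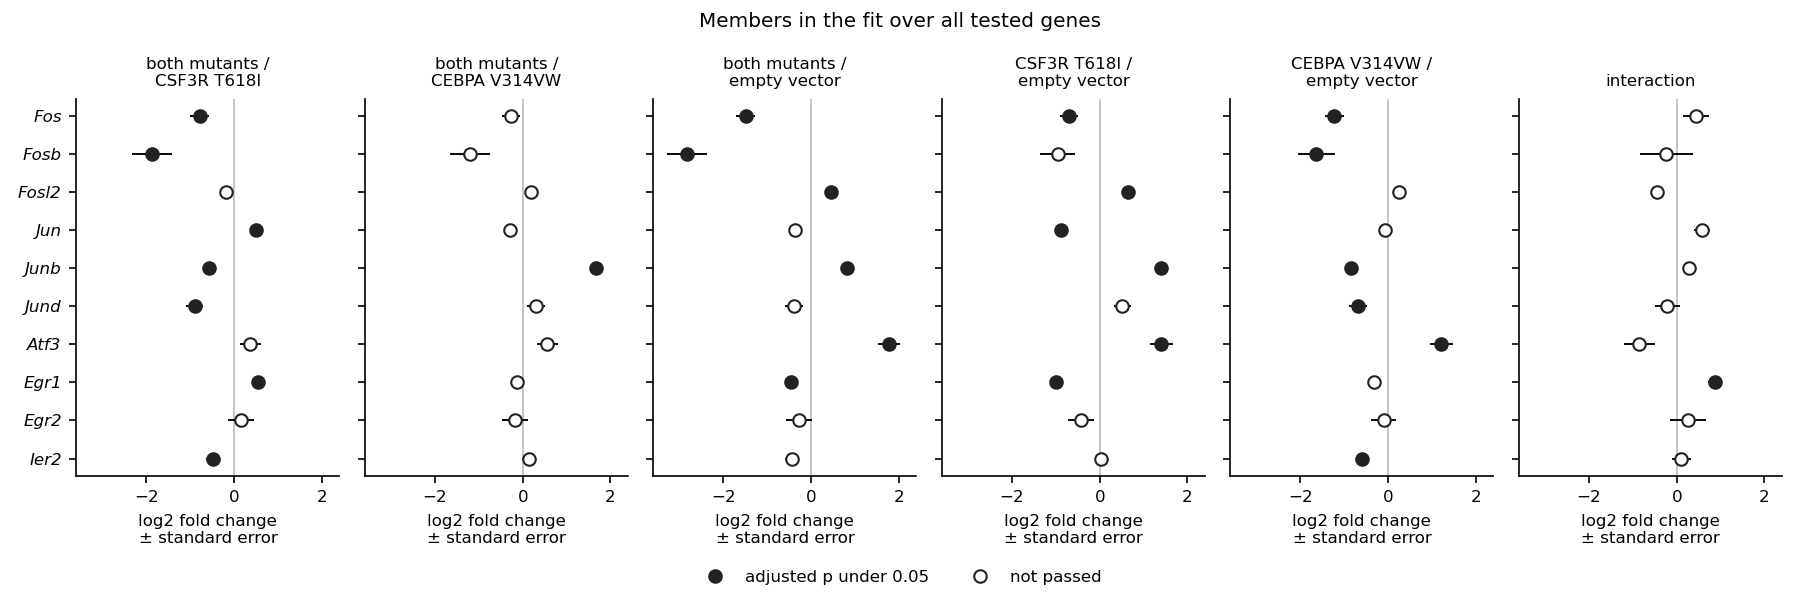
Log2 fold change ± standard error of each member (rows) in 5 comparisons and the interaction (panels, named as numerator / denominator), from the edgeR fit to all 12 libraries. Filled points passed an adjusted p under 0.05: Junb changed in all 5 pairwise comparisons, and Egr1 is the filled point of the interaction panel.

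The Fos family supplies the partner that cannot bind DNA without Jun. Fos (ENSMUSG00000021250, chr12:85473890-85477273, plus strand) encodes its founding member. It had 28.1, 36.4 and 28.4 CPM in libraries A, B and C with both mutants, 68.6, 49.3 and 42.5 with CSF3R T618I, 44.3, 32.7 and 34.7 with CEBPA V314VW, and 112, 79.2 and 70.4 with empty vector. Every library with a mutant lay below every empty vector library, and both mutants overlapped with CEBPA V314VW but not with CSF3R T618I. Fos fell to 31.0 ± 4.73 CPM with both mutants, against 87.1 ± 21.8 with empty vector (log2 fold change -1.49 ± 0.21, SE; edgeR adjusted p = 0.000198). It also fell with CEBPA V314VW over empty vector, by 1.23 on the log2 scale (edgeR adjusted p = 0.00111). The fall with CSF3R T618I over empty vector was -0.70 ± 0.21 (edgeR adjusted p = 0.031) and rested on single libraries: without empty vector library A it was -0.50 (adjusted p = 0.138), without CSF3R T618I library B -0.65 (adjusted p = 0.105), and with those groups alone in the fit the adjusted p was 0.118. Fos fell by 0.79 ± 0.21 with both mutants over CSF3R T618I (edgeR adjusted p = 0.0195), a call lost without CSF3R T618I library A (-0.57, adjusted p = 0.0783) and without both mutants library A (-0.72, adjusted p = 0.0854) or C (-0.73, adjusted p = 0.082).

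Fosb (ENSMUSG00000003545, chr7:19302696-19310051, minus strand), which encodes a longer-lived Fos protein in its spliced form, moved further in the same direction from a lower level. It had 0.773, 1.14 and 1.09 CPM with both mutants, 5.47, 3.55 and 2.03 with CSF3R T618I, 3.93, 1.69 and 1.27 with CEBPA V314VW, and 9.33, 7.19 and 4.998 with empty vector. The values with both mutants lay below all others, and those with CSF3R T618I or CEBPA V314VW spanned a wide range. Fosb was 7.15-fold lower with both mutants than with empty vector (log2 fold change -2.84 ± 0.45; edgeR adjusted p = 0.000517). This was the largest change of any member in any of the comparisons. It was 3.67-fold lower with both mutants than with CSF3R T618I (-1.88 ± 0.45; edgeR adjusted p = 0.0112), which missed the threshold without both mutants library A (-1.72, adjusted p = 0.0565). The fall with CEBPA V314VW over empty vector (-1.64 ± 0.42; edgeR adjusted p = 0.0161) was lost without CEBPA V314VW library B (adjusted p = 0.0734) or C (adjusted p = 0.0661), without empty vector library A (adjusted p = 0.0613) and with no low-count filter (adjusted p = 0.0513). Both mutants set against CEBPA V314VW gave -1.20 ± 0.46 with an edgeR adjusted p of 0.0961 and a 95% interval of -2.19 to -0.21, and DESeq2 gave an adjusted p of 0.0328. Without CEBPA V314VW library A the value was -0.58 (edgeR adjusted p = 0.472), and 2 of 19 alternatives passed.

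Fosl2 (ENSMUSG00000029135, chr5:32135801-32157842, plus strand) encodes Fra-2, a Fos protein without the strong activation domain of Fos, and it went the other way. Its levels were 12.1, 12.7 and 13.2 CPM with both mutants, 14.8, 14.5 and 14.1 with CSF3R T618I, 11.1, 10.9 and 11.2 with CEBPA V314VW, and 10.0, 9.47 and 8.44 with empty vector. No 2 groups overlapped, although the steps between them were small. Fosl2 rose by 0.44 ± 0.10 with both mutants over empty vector (edgeR adjusted p = 0.00563) and by 0.64 ± 0.10 with CSF3R T618I over empty vector (edgeR adjusted p = 0.000506). CEBPA V314VW over empty vector gave 0.25 ± 0.10, which did not pass (edgeR adjusted p = 0.113). Both mutants over CSF3R T618I gave -0.19 ± 0.10 (edgeR adjusted p = 0.189), and -0.37 with the length trend taken out (edgeR adjusted p = 0.0408). Within a library, Fos had 2.45 ± 0.37 counts per count of Fosl2 with both mutants, 3.68 ± 0.85 with CSF3R T618I, 3.36 ± 0.54 with CEBPA V314VW and 9.29 ± 1.62 with empty vector. The ratio needs no scaling between libraries, and its gap between the mutant groups and empty vector exceeded the spread within any of them. Fosl2 has the longer exons, 9680 bases against 2352 for Fos, so each library's length trend enters the ratio. Its part was not tested.

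**Figure D2:**
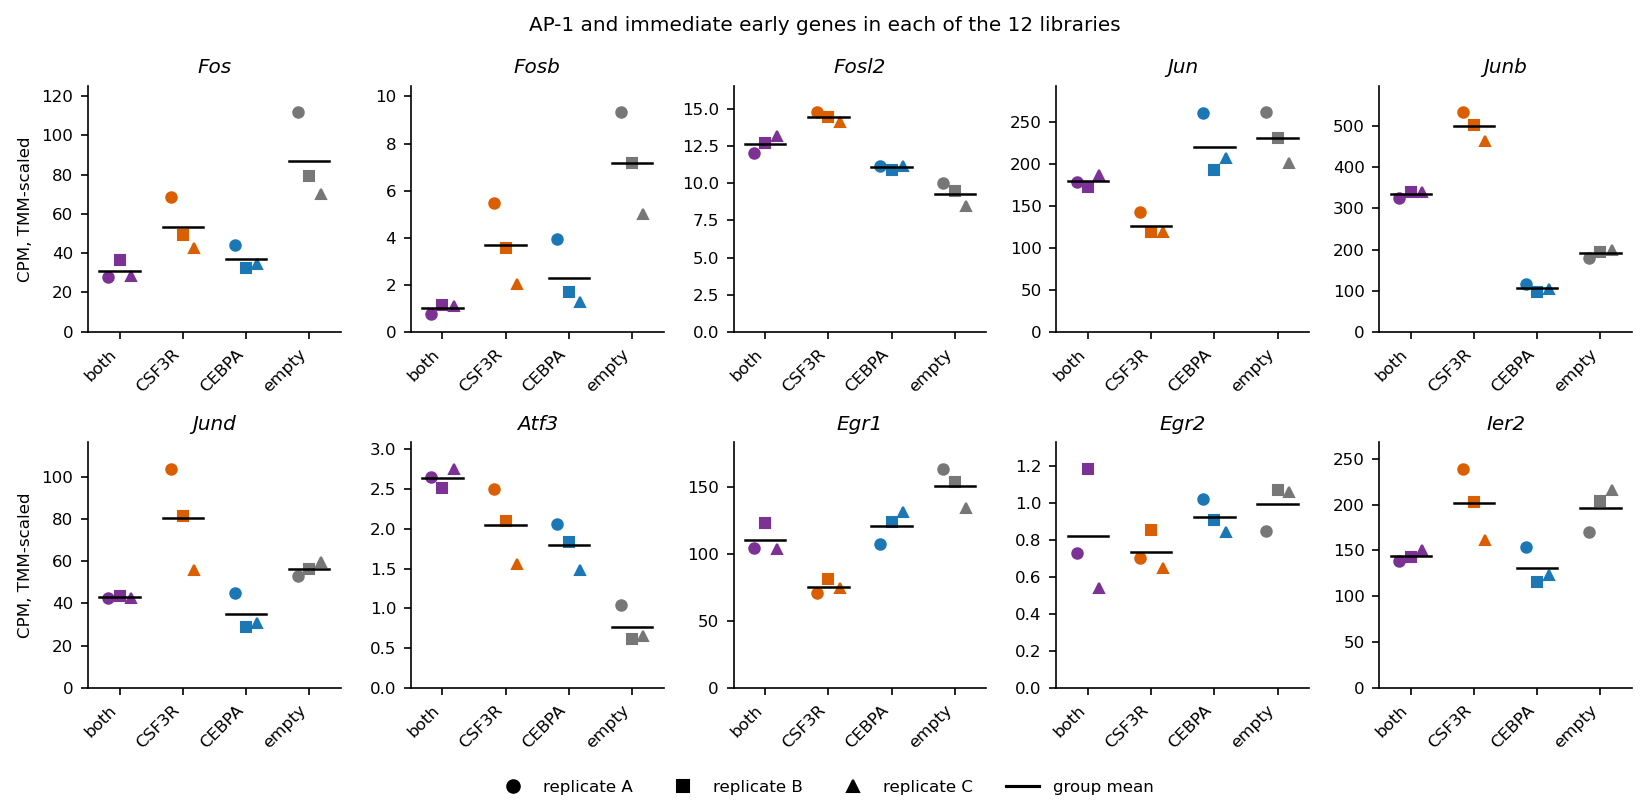
CPM on TMM-scaled library sizes (y axes, each from 0) of the 10 members in each library, by group (x axes). Points are libraries, shaped by replicate letter, and bars are group means: Junb ranges from 96.9 CPM in a CEBPA V314VW library to 534 CPM in a CSF3R T618I library, and Fos and Fosb are highest in empty vector.

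In the Jun family, whose members can pair with themselves or with Fos proteins, Junb carried the widest contrast. Junb (ENSMUSG00000052837, chr8:84974484-84978718, minus strand) had 326, 341 and 339 CPM with both mutants, 534, 503 and 465 with CSF3R T618I, 117, 96.9 and 104 with CEBPA V314VW, and 180.0, 194 and 198 with empty vector. The 4 groups did not overlap and kept the order CSF3R T618I, both mutants, empty vector, CEBPA V314VW. Junb was 2.63-fold higher with CSF3R T618I than with empty vector (log2 fold change 1.39 ± 0.09; edgeR adjusted p = 5.35e-07). In cells with CEBPA V314VW the receptor mutant raised it 3.16-fold, to 335 ± 8.06 CPM with both mutants, against 106 ± 9.94 with CEBPA V314VW (1.66 ± 0.10; edgeR adjusted p = 1.83e-07). CEBPA V314VW lowered it to that level, against 191 ± 9.40 CPM with empty vector (-0.85 ± 0.09; edgeR adjusted p = 3.24e-05). It also fell by 0.58 ± 0.09 with both mutants over CSF3R T618I (edgeR adjusted p = 0.000761). Both mutants over empty vector gave 0.81 ± 0.09 (edgeR adjusted p = 3.09e-05). The interaction of 0.27 ± 0.13, with a 95% interval of -0.02 to 0.55, did not pass (edgeR adjusted p = 0.479), and with the length trend taken out it was 0.40 (adjusted p = 0.0492). All 5 pairwise calls held in each of the 19 alternatives.

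Junb shares 173 of its 2301 exon bases with Prdx2, a peroxidase gene on the opposite strand, and no source used here gives a strand setting for the counting. Prdx2 had 149 ± 5.05 CPM with both mutants, 230 ± 59.7 with CSF3R T618I, 137 ± 22.7 with CEBPA V314VW and 132 ± 23.9 with empty vector. The part of these reads that may have been counted for Junb was not tested. Prdx2 ran from 166 to 284 CPM with CSF3R T618I, where Junb rose, above the empty vector range of 110 to 158. With both mutants, where Junb also rose over empty vector, Prdx2 ran from 146 to 155 CPM, within that range. With CEBPA V314VW, where Junb fell, it ran from 122 to 163 CPM and overlapped empty vector.

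Jun (ENSMUSG00000052684, chr4:95049034-95052222, minus strand), the founding partner of Fos, was lowest where Junb was highest. It had 179, 173 and 187 CPM with both mutants, 143, 118 and 118 with CSF3R T618I, 260.3, 193 and 207 with CEBPA V314VW, and 262, 231 and 201 with empty vector. The CSF3R T618I libraries lay below all others, and those with both mutants lay between them and the remaining groups. CSF3R T618I lowered Jun to 126 ± 13.9 CPM, against 231 ± 30.1 with empty vector (-0.87 ± 0.13; edgeR adjusted p = 0.000451). Both mutants raised it against CSF3R T618I by 0.51 ± 0.13 (edgeR adjusted p = 0.018), a call lost without both mutants library A (adjusted p = 0.0556) or C (adjusted p = 0.0687) or CSF3R T618I library B (adjusted p = 0.074). Both mutants over empty vector gave -0.37 ± 0.13, just short of the threshold (edgeR adjusted p = 0.0693), and passed on total counts, in DESeq2, in the fit of those groups alone and when any 1 of 4 libraries was left out. CEBPA V314VW over empty vector gave -0.07 ± 0.13, with a 95% interval of -0.36 to 0.21 (edgeR adjusted p = 0.809). Jun shares 232 exon bases with the antisense gene Junos, which had 569 counts in the 12 libraries, against 112261 for Jun.

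Jund (ENSMUSG00000071076, chr8:70698949-70700616, plus strand) is the Jun gene that resting cells usually express. It had 42.7, 43.5 and 42.8 CPM with both mutants, 104, 81.5 and 56.0 with CSF3R T618I, 44.7, 28.9 and 30.8 with CEBPA V314VW, and 53.0, 56.4 and 59.4 with empty vector. Libraries with both mutants nearly coincided, while those with CSF3R T618I spread and library C among them reached down into the empty vector range. Jund was 1.87-fold lower with both mutants than with CSF3R T618I (-0.90 ± 0.20; edgeR adjusted p = 0.00694). CEBPA V314VW over empty vector gave -0.69 ± 0.20 (edgeR adjusted p = 0.0309), lost without CEBPA V314VW library B (adjusted p = 0.12) or C (adjusted p = 0.107) and without empty vector library B (adjusted p = 0.0772) or C (adjusted p = 0.0821). CSF3R T618I over empty vector gave 0.52 ± 0.20 (edgeR adjusted p = 0.0912), and without CSF3R T618I library C it was 0.72 (adjusted p = 0.0038).

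Set against each other within a library, Junb had 1.82, 1.97 and 1.81 counts per count of Jun with both mutants, 3.75, 4.25 and 3.92 with CSF3R T618I, 0.448, 0.503 and 0.504 with CEBPA V314VW, and 0.688, 0.839 and 0.983 with empty vector. Junb had more counts than Jun in all 6 libraries with the receptor mutant and fewer in the 6 without it, but Jun has the longer exons, 3189 bases against 2301. Per exon length, Junb was above Jun in all libraries with the receptor mutant and also in empty vector libraries B (44.2% of Jun family transcripts, against 38.0% for Jun) and C (46.6%, against 34.2%), and below it in empty vector library A and with CEBPA V314VW. Junb made up 64.0% ± 0.768 of Jun family transcripts with both mutants, 71.4% ± 2.82 with CSF3R T618I, 34.1% ± 1.93 with CEBPA V314VW and 43.8% ± 2.93 with empty vector. Jund took 11.3% ± 0.203 with both mutants, 15.6% ± 3.06 with CSF3R T618I, 15.2% ± 1.42 with CEBPA V314VW and 17.9% ± 1.36 with empty vector. The Jun share was 24.7% ± 0.854 with both mutants, 12.9997% ± 0.739 with CSF3R T618I, 50.7% ± 0.503 with CEBPA V314VW and 38.3% ± 4.27 with empty vector. Summed per length, transcripts of Fos, Fosb and Fosl2 came to 0.0642 ± 0.00876 of Jun family transcripts with both mutants, 0.0805 ± 0.011 with CSF3R T618I, 0.128 ± 0.00215 with CEBPA V314VW and 0.206 ± 0.0476 with empty vector. Fosl1, a Fos gene outside the set, was not in this sum. These ratios are descriptions without a test.

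**Figure D3:**
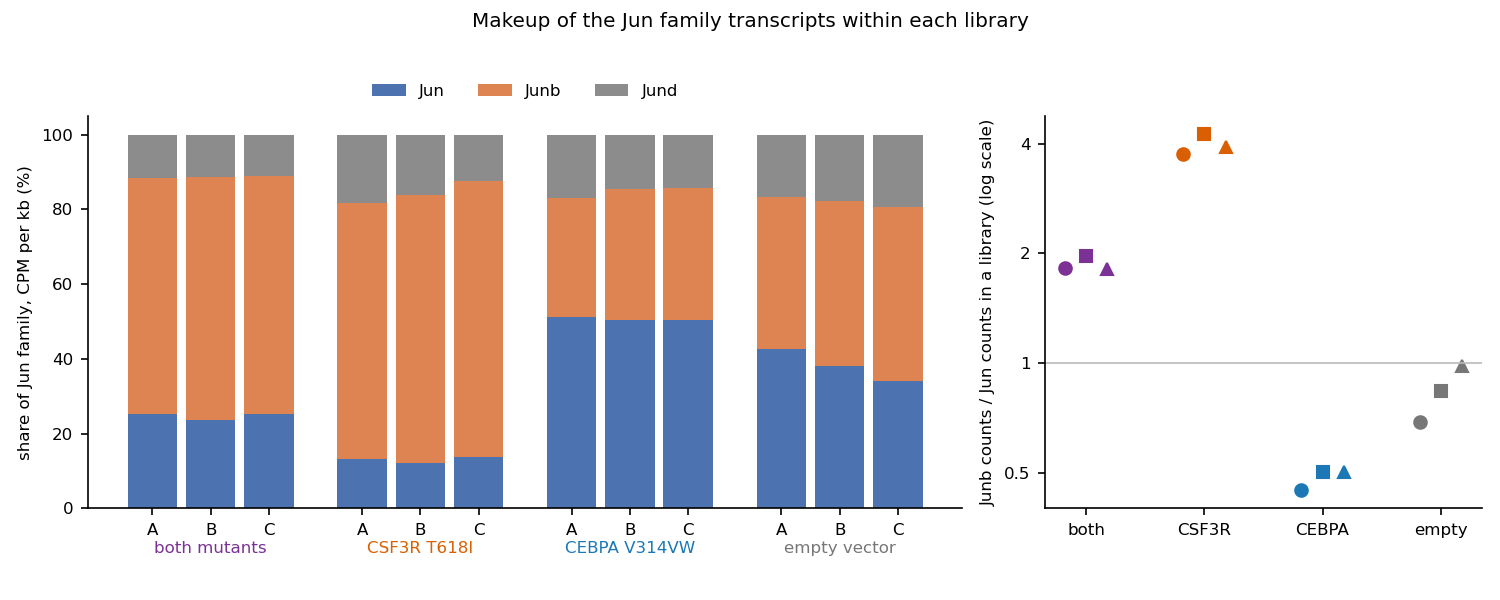
Left, share of Jun, Junb and Jund in the summed CPM per kb of the Jun family in each library (stacked bars, %, by replicate letter and group). Right, Junb counts over Jun counts in each library on a log scale, not corrected for length, with a line at equal counts: the 6 libraries with CSF3R T618I, alone or with CEBPA V314VW, have ratios of 1.81 to 4.25 and the other 6 of 0.448 to 0.983, while per kb, in the left panel, Junb also exceeds Jun in empty vector libraries B and C.

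Atf3 (ENSMUSG00000026628, chr1:191170296-191218039, minus strand), a stress-induced factor of the wider zipper family that can pair with Jun proteins, was low and rose with every mutant. It had 2.65, 2.51 and 2.75 CPM with both mutants, 2.50, 2.10 and 1.55 with CSF3R T618I, 2.06, 1.83 and 1.48 with CEBPA V314VW, and 1.04, 0.612 and 0.653 with empty vector. All 9 libraries with a mutant exceeded all 3 with empty vector, whose values rest on 28 to 54 counts. Atf3 was 3.41-fold higher with both mutants than with empty vector (1.77 ± 0.26; edgeR adjusted p = 0.000228). CSF3R T618I over empty vector gave 1.41 ± 0.26 (edgeR adjusted p = 0.00168), and CEBPA V314VW over empty vector 1.21 ± 0.26 (edgeR adjusted p = 0.00494). These 3 calls held in each of the 19 alternatives. The interaction was -0.85 ± 0.35 with a 95% interval of -1.61 to -0.09 and did not pass (edgeR adjusted p = 0.372).

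Egr1 (ENSMUSG00000038418, chr18:34859823-34864984, plus strand) encodes a zinc finger factor that drives monocyte differentiation and holds blood stem cells at rest. It had 104, 123 and 104 CPM with both mutants, 71.0, 81.2 and 74.4 with CSF3R T618I, 107, 123 and 131 with CEBPA V314VW, and 163, 153 and 134 with empty vector. CSF3R T618I libraries lay below all others and empty vector libraries above all others. Egr1 fell to 75.5 ± 5.18 CPM with CSF3R T618I, against 150.4 ± 14.8 with empty vector (-0.99 ± 0.11; edgeR adjusted p = 4.5e-05). In cells with CEBPA V314VW the receptor mutant gave -0.13 ± 0.11, with a 95% interval of -0.38 to 0.12 (edgeR adjusted p = 0.521). The difference between these effects, the interaction of 0.86 ± 0.16, passed (edgeR adjusted p = 0.0151) but not without both mutants library B (0.78, adjusted p = 0.0614) or without empty vector library B (0.85, adjusted p = 0.0554). Both mutants raised Egr1 over CSF3R T618I by 0.54 ± 0.11 (edgeR adjusted p = 0.00461). It fell by 0.45 ± 0.11 with both mutants over empty vector (edgeR adjusted p = 0.0116), lost without both mutants library A (adjusted p = 0.0621) or C (adjusted p = 0.0632). Within a library, Egr1 had 0.328 ± 0.028 counts per Junb count with both mutants, 0.151 ± 0.016 with CSF3R T618I, 1.15 ± 0.199 with CEBPA V314VW and 0.793 ± 0.115 with empty vector.

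Egr2 (ENSMUSG00000037868, chr10:67535475-67542188, plus strand), a relative of Egr1 known for its part in macrophage and nerve sheath development, was near the limit of these libraries with 28 to 56 counts each. It had 0.729, 1.19 and 0.543 CPM with both mutants, 0.702, 0.852 and 0.648 with CSF3R T618I, 1.02, 0.907 and 0.842 with CEBPA V314VW, and 0.850, 1.07 and 1.06 with empty vector. All groups overlapped with both mutants and no comparison passed. Both mutants over CSF3R T618I gave 0.15 ± 0.29, with a 95% interval of -0.49 to 0.79 on the log2 scale.

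Ier2 (ENSMUSG00000053560, chr8:84661331-84662852, minus strand) encodes a small nuclear protein induced with the Fos and Jun genes. It had 139, 143 and 151 CPM with both mutants, 239, 203 and 162 with CSF3R T618I, 154, 115 and 124 with CEBPA V314VW, and 170.4, 204 and 216 with empty vector. Libraries with CEBPA V314VW, alone or with the receptor mutant, lay below all empty vector libraries. Ier2 fell with CEBPA V314VW to 131 ± 20.3 CPM, against 197 ± 23.6 with empty vector (-0.59 ± 0.15; edgeR adjusted p = 0.016). That call was lost without CEBPA V314VW library B (adjusted p = 0.0647) or C (adjusted p = 0.0551) or empty vector library B (adjusted p = 0.0563) or C (adjusted p = 0.0544). Both mutants against CSF3R T618I gave -0.48 ± 0.15 at an edgeR adjusted p of 0.0428, and only 7 of its 19 alternatives passed. Both mutants over empty vector gave -0.45 ± 0.15 and an edgeR adjusted p of 0.0515, and 11 of 19 alternatives passed. CSF3R T618I over empty vector gave 0.03 ± 0.15, with an interval of -0.29 to 0.36, and turned to -0.072 on total counts.

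Per kilobase of exon, Junb was the most abundant member with both mutants and with CSF3R T618I, and Ier2 with CEBPA V314VW and with empty vector. Fosb, Egr2 and Atf3 held the last 3 places in the 3 groups with a mutant, and in empty vector Fosl2 stood among them in place of Fosb. The order was the same in every group with the longest transcript in place of the union of exons.

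Of the 10 members, 4 shared a pattern of deviations within groups, picked out after the values were seen. In CSF3R T618I, CEBPA V314VW and empty vector alike, library A was the highest of its group for Fos, Fosb, Jun and Atf3. The share of all genes with this order was not counted. For Fosb the deviation of library A from its group's mean log2 CPM was 0.68 in CSF3R T618I, 0.94 in CEBPA V314VW and 0.42 in empty vector, and for Fos it was 0.39, 0.26 and 0.39. With both mutants no such order appeared, and library A was the lowest in Fos, Fosb, Fosl2, Junb, Jund and Ier2. Jund and Ier2, with exons of 1668 and 1522 bases the shortest members, deviated with the length trend: CSF3R T618I library A was at 0.41 for Jund and 0.27 for Ier2, and library C at -0.48 and -0.30. Other members went against the letter pattern: Egr1 was lowest in library A of CSF3R T618I and CEBPA V314VW, and Junb, Jund, Ier2 and Egr2 were lowest in library A of empty vector. Junb, Jund and Ier2 were, however, highest in library A of CSF3R T618I and of CEBPA V314VW. The part of the length trend in these deviations was not tested. Fosl2 stayed between -0.14 and 0.11 in every library.

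**Figure D4:**
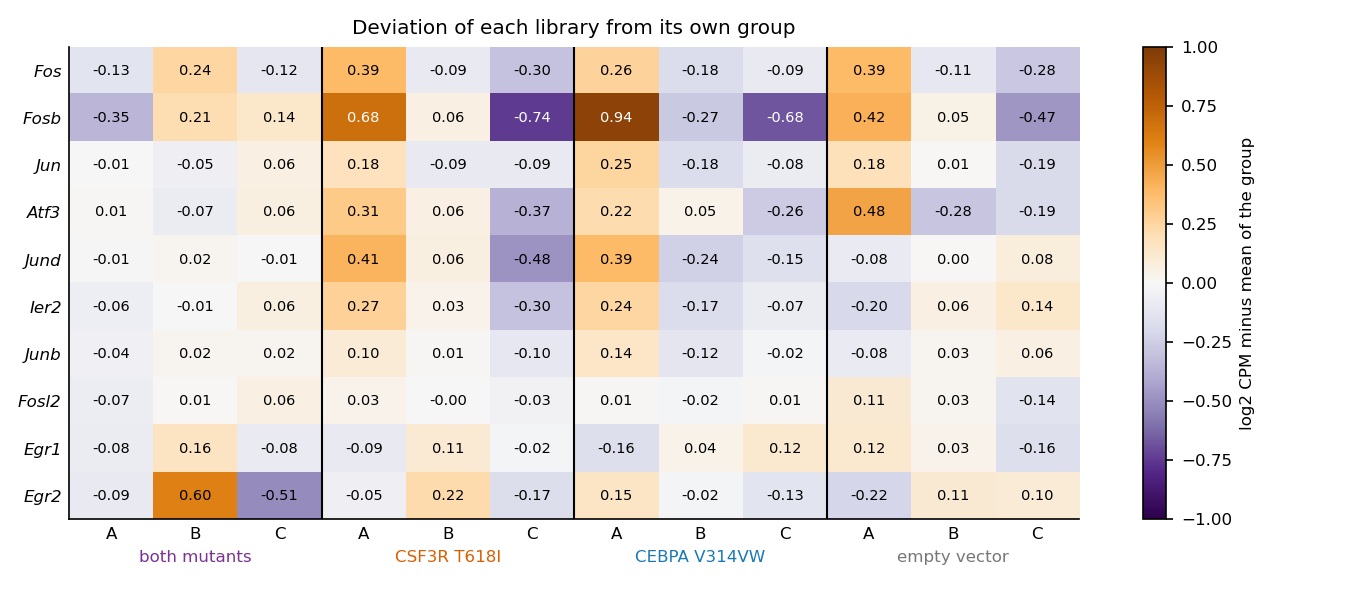
Log2 CPM of each member minus the mean of its own group (colour and printed number) in each library (columns by group and replicate letter). The upper rows Fos, Fosb, Jun and Atf3 are highest in library A of CSF3R T618I, CEBPA V314VW and empty vector, by 0.18 to 0.94. This order was not counted over all genes.

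Genes around AP-1 are described by lists, beside the share of all genes given above for each comparison. The counts are small and move with single libraries: of 84 list counts, 28 moved by over 1.5 times without CSF3R T618I library C, and 4 to 14 without any other library. Of 31 tested other immediate and delayed early genes, 3 rose and 12 fell with both mutants over empty vector, 6 rose and 8 fell with CSF3R T618I over empty vector, and 5 rose and 12 fell with CEBPA V314VW over empty vector. Both mutants over CSF3R T618I gave 4 higher and 11 lower, and both mutants over CEBPA V314VW gave 7 higher and 4 lower. Dusp1, a phosphatase that switches off MAP kinases, was, like Fos, highest in empty vector: it had 26.2 ± 0.709 CPM with both mutants, 59.0 ± 10.0 with CSF3R T618I, 24.3 ± 0.498 with CEBPA V314VW and 109 ± 27.3 with empty vector. It fell by 2.17 on the log2 scale with CEBPA V314VW over empty vector (edgeR adjusted p = 1.53e-06). Sgk1, a kinase of the AKT family, moved against it, at 122 ± 5.58 CPM with both mutants, 39.6 ± 3.69 with CSF3R T618I, 130 ± 6.39 with CEBPA V314VW and 38.5 ± 4.19 with empty vector. Trib1, a pseudokinase that directs the breakdown of C/EBPα protein, was 1.83 ± 0.15 higher on the log2 scale with both mutants than with CSF3R T618I (edgeR adjusted p = 4.4e-06). Klf2, a zinc finger factor of quiescent leukocytes, fell by 1.61 ± 0.18 there (edgeR adjusted p = 4.9e-05).

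Among 14 genes of ERK pathway feedback, 1 rose and 5 fell with both mutants over empty vector, 2 rose and 8 fell with CSF3R T618I over empty vector, and 2 rose and 1 fell with CEBPA V314VW over empty vector. Both mutants over CEBPA V314VW gave 2 higher and 5 lower, and both mutants over CSF3R T618I 4 higher and 1 lower. Dusp6, the phosphatase that acts on ERK in the cytoplasm, had 39.7 ± 1.38 CPM with both mutants, 24.0 ± 3.56 with CSF3R T618I, 90.5 ± 3.66 with CEBPA V314VW and 79.1 ± 3.31 with empty vector. It fell by 1.72 on the log2 scale with CSF3R T618I over empty vector (edgeR adjusted p = 3.35e-07). Dusp5, its nuclear counterpart, fell by 1.28 ± 0.11 with both mutants over CEBPA V314VW (edgeR adjusted p = 3.2e-06). Spry1, a Sprouty inhibitor of receptor signalling, rose by 1.01 ± 0.10 with CEBPA V314VW over empty vector (edgeR adjusted p = 1.18e-05). Of 19 upstream regulators, 4 rose and 2 fell with both mutants over empty vector, 2 rose and 4 fell with CSF3R T618I and 3 rose and 1 fell with CEBPA V314VW. Without CSF3R T618I library C, 9 fell with CSF3R T618I. Rps6ka3, a kinase downstream of ERK, had 256 ± 9.98 CPM with both mutants, 212 ± 33.8 with CSF3R T618I, 52.1 ± 5.89 with CEBPA V314VW and 28.4 ± 0.611 with empty vector. Elk3, a partner of serum response factor at early gene promoters, was 1.60 ± 0.11 higher on the log2 scale with both mutants than with CSF3R T618I (edgeR adjusted p = 9.9e-07).

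Of 20 AP-1 and related zipper partners, 2 rose and 3 fell with both mutants over empty vector, 2 rose and none fell with CSF3R T618I, and 1 rose and 2 fell with CEBPA V314VW. Without CSF3R T618I library C, 5 rose and 2 fell with CSF3R T618I and 5 rose with both mutants, while without CSF3R T618I library A 1 rose with CSF3R T618I and 4 with both mutants. Fosl1, which encodes the Fos protein Fra-1, had 3.04 ± 0.421 CPM with both mutants, 5.54 ± 0.403 with CSF3R T618I, 2.32 ± 0.163 with CEBPA V314VW and 6.44 ± 0.465 with empty vector, and fell with both mutants over empty vector by 1.08 on the log2 scale (edgeR adjusted p = 0.000116). Batf, an AP-1 factor that lacks an activation domain, had 48.7 ± 1.98 CPM with both mutants, 53.1 ± 6.82 with CSF3R T618I, 30.1 ± 5.09 with CEBPA V314VW and 27.6 ± 4.45 with empty vector. It rose in both groups with the receptor mutant over empty vector, by 0.82 ± 0.15 with both mutants (edgeR adjusted p = 0.00122) and by 0.94 ± 0.15 with CSF3R T618I (edgeR adjusted p = 0.000526). Of 12 textbook AP-1 targets, 5 rose and 1 fell with both mutants over empty vector, 6 rose and 1 fell with CSF3R T618I, and 2 rose and 2 fell with CEBPA V314VW. Mmp9, a matrix protease of neutrophils, had 2.99 ± 2.93 CPM with both mutants, 34.9 ± 25.0 with CSF3R T618I, 0.0271 ± 0.0235 with CEBPA V314VW and 0.868 ± 1.10 with empty vector, an SD near or above the mean in most groups.

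Stress genes were counted because Atf3 belongs to the stress response. Of 12 integrated stress response genes, 4 rose and 3 fell with both mutants over empty vector, 6 rose and none fell with CSF3R T618I, and 1 rose and 2 fell with CEBPA V314VW. Chac1, which degrades glutathione, had 17.2 ± 0.621 CPM with both mutants, 21.6 ± 0.436 with CSF3R T618I, 7.996 ± 0.609 with CEBPA V314VW and 8.50 ± 1.57 with empty vector. Nupr1, a stress-induced chromatin protein, rose with CEBPA V314VW over empty vector by 1.08 ± 0.21 (edgeR adjusted p = 0.00263), as Atf3 did. Of 11 heat shock genes, 2 rose and 1 fell with both mutants over empty vector, 5 rose and none fell with CSF3R T618I, and none rose and 1 fell with CEBPA V314VW. Without CSF3R T618I library A or C, 5 heat shock genes rose with both mutants over empty vector, against 1 without any single both mutants library or without empty vector library A or B, and without both mutants library A or C or empty vector library B no stress response gene fell there. Hspa1b, an inducible HSP70 gene, had 8.23 ± 0.452 CPM with both mutants, 9.70 ± 1.17 with CSF3R T618I, 3.31 ± 0.267 with CEBPA V314VW and 4.84 ± 0.889 with empty vector, the order of groups seen in Junb.

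**Figure D5:**
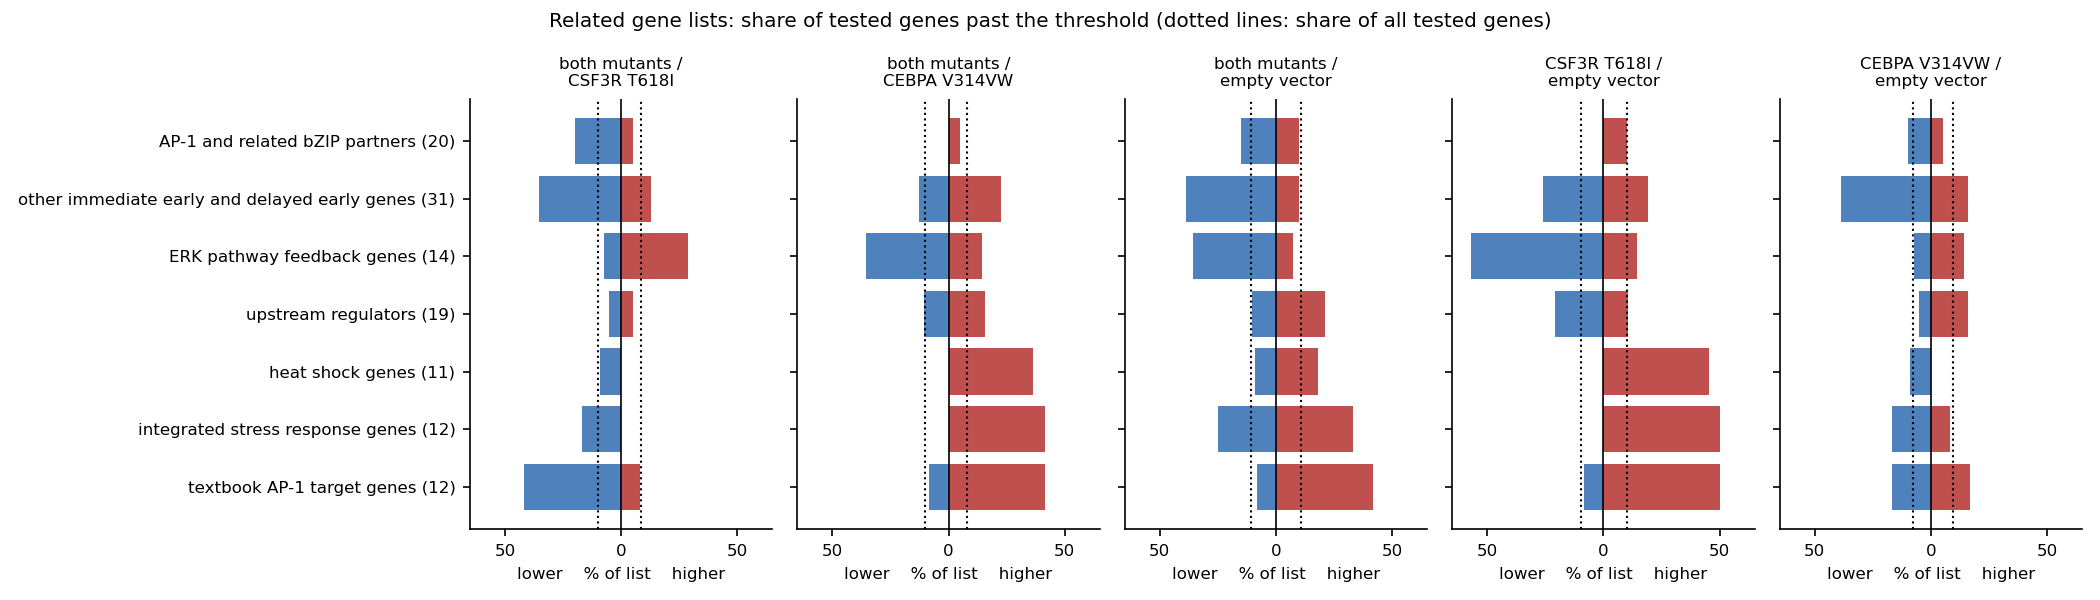
Share of the tested genes of each list (rows, number tested in brackets) that rose (to the right) or fell (to the left) at an adjusted p under 0.05, in % of the list, in 5 comparisons (panels, numerator / denominator). Dotted lines are the shares of all 16360 genes: ERK feedback genes fall furthest to the left with CSF3R T618I over empty vector, 8 of 14, against 2 of 14 to the right.

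Cell type markers moved with the groups. Counts of called markers stand beside the share of all genes given above for each comparison. Summed neutrophil markers, 9 genes, ran from 850 to 1009 CPM with both mutants, 3949 to 8994 with CSF3R T618I, 93.5 to 154 with CEBPA V314VW and 511 to 1082 with empty vector, a sum that was mostly S100a8 and S100a9. Single markers did not all follow it: with both mutants over empty vector 1 rose and 4 fell of 9 tested, and Cebpe, a factor of granule formation, ran from 8.06 to 9.45 CPM with both mutants and 69.5 to 82.2 with empty vector. Summed erythroid markers, 8 genes, ran from 266 to 275 CPM with both mutants, 547 to 992 with CSF3R T618I, 40.4 to 47.6 with CEBPA V314VW and 62.3 to 71.4 with empty vector, the group order of Junb without overlap. Single erythroid markers did not all follow that order: 4 of 8 tested fell with CEBPA V314VW over empty vector. Epor ran from 6.06 to 7.25 CPM with CEBPA V314VW and 6.20 to 8.79 with empty vector. Mast cell and basophil markers, 7 genes, summed to 706 to 809 CPM with both mutants, 1485 to 1947 with CSF3R T618I, 1866 to 1969 with CEBPA V314VW and 2868 to 3734 with empty vector, and like Fos this sum was highest in empty vector and lowest with both mutants. Hdc, however, was lowest with CEBPA V314VW, at 147 to 172 CPM against 185 to 207 with both mutants. Fcer1a ran from 67.7 to 82.8 CPM with CSF3R T618I and 57.8 to 71.9 with empty vector. Over empty vector, 6 of 7 fell with both mutants, 6 with CSF3R T618I and 2 with CEBPA V314VW, and none rose. The group medians of 3 further lists followed the order of Fos, empty vector, CSF3R T618I, CEBPA V314VW, both mutants. Eosinophil markers, 3 genes of which Epx and Prg2 were above 1 CPM, ran from 8.13 to 13.5 CPM with both mutants, 124 to 215 with CSF3R T618I, 14.4 to 35.4 with CEBPA V314VW and 299 to 468 with empty vector. Megakaryocyte markers, 7 genes and mostly Itga2b, ran from 61.2 to 77.4 CPM with both mutants, 125 to 142 with CSF3R T618I, 110 to 119 with CEBPA V314VW and 153 to 173 with empty vector. Among them Pf4 was highest with CEBPA V314VW, at 23.5 to 31.0 CPM, against 9.37 to 14.7 with empty vector. T and NK cell markers, 6 genes, rested on Nkg7 and ran from 63.1 to 73.8 CPM with both mutants, 137 to 218 with CSF3R T618I, 128 to 137 with CEBPA V314VW and 325 to 378 with empty vector. Lck went the other way, at 7.78 to 8.59 CPM with both mutants against 5.92 to 7.12 with empty vector. Of 4 tested T and NK cell markers, 1 rose and 2 fell in that comparison. The 8 stem and progenitor markers all reached 1 CPM in every group, at 781 to 793 CPM in sum with both mutants, 487 to 611 with CSF3R T618I, 1037 to 1207 with CEBPA V314VW and 965 to 1102 with empty vector. Myb alone gave 511 to 519 CPM of this sum with both mutants and 515 to 531 with empty vector. Single stem and progenitor markers did not follow the sum. Over empty vector, 4 rose and 2 fell with both mutants, 1 rose and 5 fell with CSF3R T618I, and 6 rose and 1 fell with CEBPA V314VW. Monocyte and macrophage markers, 10 genes, summed to 1304 to 1337 CPM with both mutants, 370 to 634 with CSF3R T618I, 703 to 934 with CEBPA V314VW and 505 to 662 with empty vector. F13a1 alone gave 987 to 1024 CPM with both mutants and 57.9 to 98.9 with empty vector, and of 9 tested markers 2 rose and 5 fell in that comparison. B cell markers summed to at most 14.1 CPM and rested on Cd79b, with Ms4a1 and Pax5 at or near 0, and Cd3e was at or near 0 in every library. In bulk RNA, fewer cells of a type and less RNA per cell cannot be told apart, and the part of these cell types in the members' values was not tested.

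Genes most like a member were taken as the 3 protein-coding genes whose log2 CPM, less its own mean, had the smallest root mean square difference from the member's over the 12 libraries, among 8638 genes at 10 CPM or more. For Junb they were Fam217b (0.106), E2f2 (0.175) and Pim2 (0.178), against a spread of 0.849 of Junb around its own mean. Pim2, a survival kinase induced by STAT signalling, had 59.2 CPM with both mutants, 98.002 with CSF3R T618I, 16.5 with CEBPA V314VW and 39.5 with empty vector. For Fos they were Cd9 (0.226), Unc119 (0.251) and Lat2 (0.256), against a spread of 0.611. For Jun they included Dtx3 (0.162) and Stoml1 (0.176), and for Jund they were AI413582 (0.122), Vamp8 (0.143) and Baz1a (0.147). Egr1 was nearest to Ppic (0.162), Rhbdd2 (0.174) and Slc18a2 (0.175), Atf3 to Afdn (0.238), Rbms1 (0.307) and 2010111I01Rik (0.325), and Ier2 to 2610001J05Rik (0.0872), 1700123O20Rik (0.0954) and Blvra (0.100). Among the members, the closest pairs were Jun with Egr1 (0.212) and Jund with Ier2 (0.236).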

How the data were processed

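RNA-seq of 12 libraries was read from 1 deposited table of raw counts per gene. The authors trimmed the reads with Trimmomatic and aligned them with STAR, the submitters' notes name mm10 and DESeq2, and the counting program, its annotation and any use of strand were not given in the sources used here. Libraries were made with a low-input kit that amplifies cDNA, so counts are not independent molecules. Of 51918 lines, 6 repeated a gene and were dropped. Gene coordinates are from GENCODE M21 on mm10. Counts were fitted in R 4.3.3 with edgeR 4.0.16 (TMM, default filter by group, robust quasi-likelihood), on CSF3R status, CEBPA status and their interaction, and adjusted by Benjamini-Hochberg over 16360 genes. The pipeline was tested on simulated data with the same spread in all groups, whereas the spread of the real groups differed. In that test DESeq2 was held to a looser limit on false calls than the edgeR fits. Alternatives were RLE or total-count scaling, no filter, DESeq2 1.42.0, a replicate block, only the compared groups, removal of each library's length trend, leaving out each library, and the longest transcript. Related lists name their largest called change in each direction above 5 CPM; other list genes given below were chosen after their values were seen. The members and lists were chosen with earlier results of these data known. Some genes that these rules name are not reported here.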

Additional observations from a re-analysis of the deposited data

Results flagged for a closer look

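The effect of CSF3R T618I differed with and without CEBPA V314VW, by the interaction term, for 6 genes among the members and related lists, beside 82 above 0 and 207 below 0 of all 16360 genes. Egr1 gave 0.86 on the log2 scale (edgeR adjusted p = 0.0151; 16 of 18 alternatives passed), since the effect was -0.99 in cells without CEBPA V314VW and -0.13 in cells with it. Zfp36l1 gave -0.77 (edgeR adjusted p = 0.0113) and passed in all 18 alternatives. Slc7a11, a cystine transporter, gave 0.93 (edgeR adjusted p = 0.0171; 13 of 18). Weaker support stood behind Dusp1 at 0.998 (edgeR adjusted p = 0.0463; 8 of 18), Zfp36 at 0.61 (edgeR adjusted p = 0.0368; 7 of 18) and Tnfaip3, a brake on NF-κB, at 0.76 (edgeR adjusted p = 0.0406; 5 of 18). Adjusted p reached 0.126 for Dusp1 without CEBPA V314VW library C, 0.128 for Zfp36 without both mutants library B, 0.134 for Tnfaip3 and 0.0647 for Slc7a11 without both mutants library A.

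Zfp36 and Zfp36l1 encode proteins that bring AU-rich messages, such as that of Fos, to decay. Zfp36 had 41.9 ± 2.55 CPM with both mutants, 88.8 ± 7.55 with CSF3R T618I, 25.8 ± 1.56 with CEBPA V314VW and 83.5 ± 3.09 with empty vector. Zfp36l1 had 18.3 ± 0.416 CPM with both mutants, 24.8 ± 1.85 with CSF3R T618I, 9.09 ± 0.392 with CEBPA V314VW and 7.21 ± 0.325 with empty vector.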

How the results depend on the processing

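Over the members' 1130 values under alternatives, 1046 kept direction and side of the threshold, 38 lost a call, 31 gained one and 15 changed sign; the cause was not tested. With both mutants over CEBPA V314VW, DESeq2 called 1 member lower, and 2 were higher with the length trend taken out or only those groups fitted. With both mutants over empty vector, 5 members were lower on total counts, 5 in DESeq2 and 6 with only those groups fitted. With the length trend taken out, 2 interactions were above 0. Leaving out 1 library, both mutants over CSF3R T618I had 1 to 2 members higher and 2 to 5 lower, both mutants over CEBPA V314VW 0 to 1 lower, both mutants over empty vector 2 to 5 lower, CEBPA V314VW over empty vector 2 to 6 lower, and the interaction 0 to 1 higher. Changes of sign, none of them called, were Ier2 in CSF3R T618I over empty vector (-0.072 on total counts, -0.14 without the length trend, -0.11 to 0.17 without 1 library) and the Jund interaction (0.035 without the length trend, -0.41 to 0.023 without 1 library). Without 1 library, Egr2 ran from -0.21 to 0.38 in both mutants over CSF3R T618I and from -0.54 to 0.054 in both mutants over CEBPA V314VW, Jun from -0.22 to 0.0094 in CEBPA V314VW over empty vector, and the interaction from -0.11 to 0.48 for Egr2, -0.52 to 0.41 for Fosb and -0.024 to 0.25 for Ier2.

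Over all genes, correlations of deviations ran from -0.275 to 0.241 between same-letter libraries and from -0.229 to 0.311 between others. Same-letter libraries as a whole were thus not set apart from the others. A pairing in part of the groups was not tested, and each library's length trend enters these correlations. Fos, Fosb, Jun and Atf3 were highest in library A of 3 groups, an order that was not counted over all genes. With the replicate block, Ier2 in both mutants over CSF3R T618I was -0.47 (edgeR adjusted p = 0.0818), Jun in both mutants over empty vector was -0.36 (edgeR adjusted p = 0.0459), the 10 members' other calls did not change, and interaction calls over all genes numbered 42 higher and 135 lower, against 82 and 207 without it.

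Over all genes, interaction calls numbered 236 higher and 390 lower in DESeq2, 146 higher without the length trend, and 1011 higher and 734 lower without CSF3R T618I library C. With only those groups fitted, CSF3R T618I over empty vector had 898 higher and 804 lower, both mutants over CSF3R T618I 1005 lower, and both mutants over CEBPA V314VW 2285 higher. On total counts CSF3R T618I over empty vector had 2462 lower. Without CSF3R T618I library C, both mutants over CSF3R T618I had 3437 higher and 3229 lower. Of 1582 list counts under alternatives, 227 moved by more than 1.5 times. The depth limits Egr2, Fosb and Atf3, which rest on as few as 28, 35 and 28 counts in a library.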
